A study of Homo sapiens with 21 samples.

Results

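The human genes named ZNF followed by a number encode zinc finger proteins. They were followed through cardiomyocyte differentiation and in UBE2B-/- cardiomyocytes. A gene entered if its symbol was ZNF plus digits in any of the 6 result tables, with names carrying a further letter, antisense names and pseudogene names left out. This rule found 252 genes with 361 transcripts, of 11851 genes with 21537 transcripts in the tables. The tables list only transcripts that differed at a q-value of at most 0.05, so the 252 genes are those that differed in at least 1 comparison, out of 477 ZNF genes annotated in GENCODE 44.

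Poly-A RNA was sequenced from PGP1, an established human induced pluripotent stem cell (iPSC) line, and from its derivatives at the stages of mesoderm (M), mesoderm of the cardiac lineage (CMes), progenitors of the heart (CP) and beating cardiomyocytes (CM). There were 3 wild-type libraries at each of 5 stages, and 3 libraries of CMs from each of 2 UBE2B-/- lines, which made 21 libraries. UBE2B is a ubiquitin-conjugating enzyme of the complex that places ubiquitin on histone H2B. Each UBE2B-/- line was a clone of PGP1 edited with Cas9, the lines were made in separate experiments, and all libraries share the PGP1 background. Each replicate came from a separate start of differentiation, and beating CMs had been selected with lactate. Adjacent stages were compared with 3 libraries against 3, and both UBE2B-/- lines were compared with the same 3 wild-type CM libraries in 1 fit, so their values are given side by side.

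Most ZNF proteins bind DNA through repeated C2H2 fingers, each a short loop held around a zinc ion by 2 cysteines and 2 histidines. Many also carry a KRAB domain, which recruits the corepressor TRIM28 and, through it, histone methylation and heterochromatin proteins. KRAB zinc finger genes arose largely by tandem duplication, lie in dense runs on chromosome 19, and are known for silencing retroelements. Of the 252 genes, 165 encoded a protein with a KRAB domain and 87 did not, as read from the annotated coding sequences. The longest annotated protein of a gene held a median of 12 fingers with KRAB and 8 without, and 116 genes lay on chromosome 19.

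A transcript was called when its q-value from the Wald test was at most 0.05 and its effect at least 0.585 on the natural-log scale, which is a change of at least 1.79-fold. Changes are given on the log2 scale with the standard error (SE) of the authors' fit. Levels are group means of estimated counts recovered from the fit. No correction for transcript length was made in them. Each is a mean of logs, and values per library were not analysed here. Where a group mean lay under 3 estimated counts the levels are given alone or with a lower bound, since the fitted change then rests on the 0.5 added before the log. Of the 252 genes, 195 had a called transcript in at least 1 comparison and 57 were listed below that fold limit throughout.

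The promoters of 4 genes on which the results turn are shown. ZNF813 and ZNF90 fell most clearly from CP to CM and lie in separate runs on chromosome 19, ZNF436 rose most clearly, and ZNF579 rose most clearly in both UBE2B-/- lines. Each window runs 5′ to 3′ on the gene's strand over 250 bases before and 50 after the start, from RefSeq on GRCh38.p14. The windows lie at chr19:53467483-53467782 on the plus strand for ZNF813, chr19:20077750-20078049 on the plus strand for ZNF90, chr1:23369787-23370086 on the minus strand for ZNF436 and chr19:55580799-55581098 on the minus strand for ZNF579. Capitals mark, on either strand, GGGCGG (the GC box), CCGGAAG (an ETS factor site), ACTACAA (the core of the ZNF143 site), CCAAT (the CCAAT box) and TATAAA (the TATA box).
ZNF813: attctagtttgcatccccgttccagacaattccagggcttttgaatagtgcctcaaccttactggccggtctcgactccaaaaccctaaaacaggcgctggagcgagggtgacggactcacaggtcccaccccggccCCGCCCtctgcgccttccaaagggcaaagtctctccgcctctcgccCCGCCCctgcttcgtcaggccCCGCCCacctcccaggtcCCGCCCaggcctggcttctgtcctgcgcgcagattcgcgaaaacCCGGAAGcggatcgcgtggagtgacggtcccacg
ZNF90: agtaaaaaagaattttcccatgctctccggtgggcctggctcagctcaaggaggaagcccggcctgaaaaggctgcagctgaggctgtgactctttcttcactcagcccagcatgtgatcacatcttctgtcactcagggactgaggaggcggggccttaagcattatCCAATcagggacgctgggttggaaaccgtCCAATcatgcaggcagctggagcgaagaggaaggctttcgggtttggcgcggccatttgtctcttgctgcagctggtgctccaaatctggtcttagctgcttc
ZNF436: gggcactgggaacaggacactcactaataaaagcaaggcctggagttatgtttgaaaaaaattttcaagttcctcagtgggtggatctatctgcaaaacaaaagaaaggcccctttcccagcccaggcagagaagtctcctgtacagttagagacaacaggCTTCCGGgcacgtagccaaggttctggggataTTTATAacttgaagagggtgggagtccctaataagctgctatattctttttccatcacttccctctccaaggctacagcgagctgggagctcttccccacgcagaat
ZNF579: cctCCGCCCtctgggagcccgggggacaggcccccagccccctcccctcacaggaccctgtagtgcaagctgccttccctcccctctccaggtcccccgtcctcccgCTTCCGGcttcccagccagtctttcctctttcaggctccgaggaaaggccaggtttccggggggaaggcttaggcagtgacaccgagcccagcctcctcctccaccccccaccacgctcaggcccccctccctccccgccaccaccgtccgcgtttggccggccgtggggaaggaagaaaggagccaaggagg

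ZNF813 held 4 GC boxes and 1 ETS site, ZNF90 held 2 CCAAT boxes, ZNF436 held 1 ETS site and 1 TATA box, and ZNF579 held 1 GC box and 1 ETS site. The letters were then counted over all windows, which 224 of the 252 genes had. The ETS letters stood in a window of 57.3% of the 150 KRAB genes and 27.0% of the 74 others, against 12.2% of 27303 genes overall. The CCAAT letters stood in 59.3% of the KRAB genes and 35.1% of the others, against 39.7% overall. The GC box stood in 68.7% and 74.3% against 48.3% overall. The TATA letters were less frequent, at 7.33% and 5.41% against 14.0%, and the ZNF143 core stood in 4.0% and 8.11% against 3.43%. Median GC content of the windows was 60.0% for the KRAB genes and 66.7% for the others. These are matches of letters and were not tested as binding sites.

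The clearest pattern over differentiation was a fall of KRAB zinc finger genes from CP to CM, at the last step into cardiomyocytes. From iPSC to M, 8 ZNF transcripts were lower and 12 higher, where 1.62% of all 68446 transcripts tested were called lower and 1.24% higher. From M to CMes, 24 were lower and 33 higher (2.65% and 3.81% of all tested). Between CMes and CP, 28 fell and 26 rose (2.63% and 3.8%). From CP to CM, 135 were lower and 58 higher (6.99% and 8.25%), in 102 and 44 genes. How many ZNF transcripts were tested is not known from tables of called transcripts, so the counts are read by direction.

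Read that way, ZNF transcripts were balanced early and mostly lower late. The share of ZNF calls that were lower was 40% at the first step, 42.1% at the second and 51.9% at the third, then 69.9% from CP to CM. Over all called transcripts those shares were 56.7%, 41%, 40.9% and 45.9%. ZNF transcripts made up 2.76% of all lower calls from CP to CM and 1.01% of all higher calls. The median change of the called ZNF transcripts there was −1.23 on the log2 scale, against 0.99 over all called transcripts. Every called change was at least 0.84 in size, so each median falls on the side of the larger count. In bulk RNA, fewer cells of one type and less RNA per cell cannot be told apart.

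**Figure D1:**
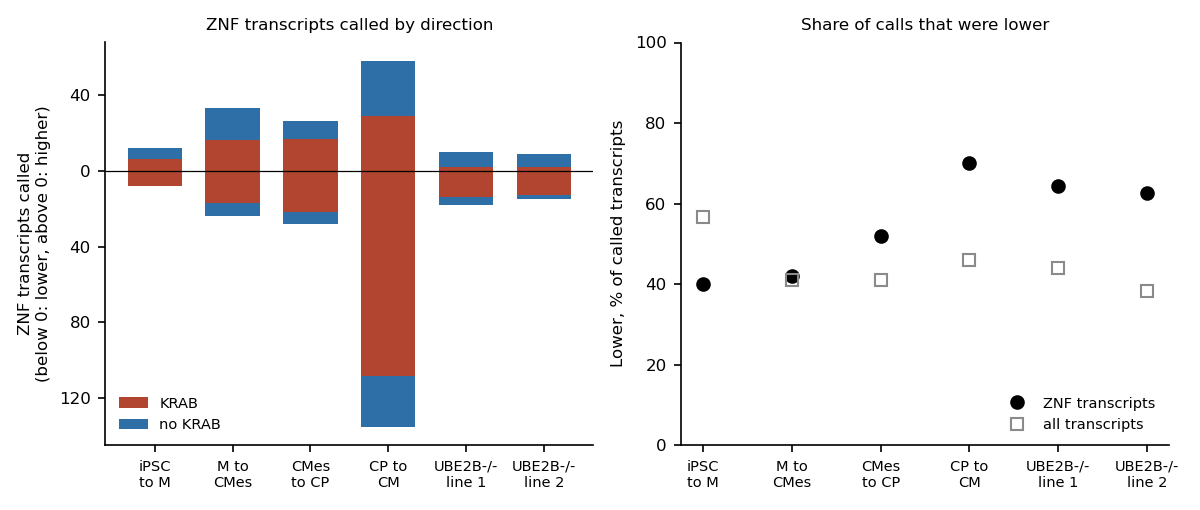
Left, number of ZNF transcripts called in each comparison, lower below 0 and higher above, split by whether the protein has a KRAB domain; from CP to CM, 108 of the 135 lower transcripts came from KRAB genes. Right, percent of called transcripts that were lower, for ZNF transcripts (filled circles) and all transcripts (open squares), at 69.9% against 45.9% from CP to CM.

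The fall was concentrated in genes with KRAB. From CP to CM, 108 KRAB transcripts were lower and 29 higher, in 79 and 21 genes, while 27 transcripts without KRAB were lower and 29 higher, in 23 genes each. The median log2 change of the called transcripts was −1.39 with KRAB and 0.91 without. Since called changes start at 0.84 in size, the 0.91 follows from a near even split and is no typical rise. Both chromosome 19 and other chromosomes showed it, with 71 KRAB transcripts lower and 16 higher on chromosome 19, and 33 lower and 9 higher elsewhere. Among other called transcripts, 298 were lower and 211 higher on chromosome 19 (58.5% lower), against 44.6% lower elsewhere. Earlier steps were more even, with 8 KRAB transcripts lower and 6 higher at the first step, 17 and 16 at the second, and 22 and 17 at the third. By gene those counts were 8 and 5, 15 and 14, and 21 and 11, so the third step already leaned lower.

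Levels were low in part of these calls. In 30 of the 135 lower and 12 of the 58 higher transcripts, 1 group mean lay under 3 estimated counts, and without them 105 were lower and 46 higher. Of the 135, 101 were protein-coding transcripts and 14 were annotated for nonsense-mediated decay. The q-values take a normal distribution for the Wald statistic. A t distribution with 4 degrees of freedom (6 in the fit of the lines) was also used, with adjustment over all transcripts tested. Only 1 lower and 3 higher ZNF transcripts then remained from CP to CM, and 0 in every other comparison. Without adjustment, 178 of the 193 CP to CM calls kept a p under 0.05 by that t distribution, as did all calls of the other comparisons. Listing at a q-value of at most 0.05 already required a large Wald statistic. That largely fixed this count, so nothing is read from it.

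ZNF813 showed the fall most clearly. This KRAB gene with 13 fingers lies on chromosome 19 (transcript at chr19:53467733-53496255). Its level was 1125 in M and 2139 in CMes, a rise of 0.93 ± 0.12 (q = 3.2e-12). From CP to CM it went from 1497 to 290.5, a change of −2.36 ± 0.15 (q = 2.6e-50).

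ZNF90, a KRAB gene with 15 fingers (chr19:20078000-20121165), had a level of 662 in CP and 22.3 in CM, a change of −4.86 ± 0.48 (q = 6.4e-22). At 2 earlier steps the same transcript was listed below the fold limit, with −0.70 ± 0.16 from iPSC to M and −0.48 ± 0.12 from CMes to CP. Another ZNF90 transcript, annotated for nonsense-mediated decay, was called lower from M to CMes (−0.94 ± 0.26). ZNF681 went from 364 to 65.6, a change of −2.47 ± 0.26 (q = 2.4e-19), and ZNF765 from 929 to 319, a change of −1.54 ± 0.16 (q = 2.4e-20). ZNF525 stood at 678 in CP and 96.1 in CM (−2.81 ± 0.31), after a change of −1.06 ± 0.20 from iPSC to M. All 4 are KRAB genes of chromosome 19.

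The counts by direction were also read along chromosome 19. Annotated ZNF genes there were grouped into 20 runs wherever neighbours lay within 500 kb, in GENCODE 44 on GRCh38. The run at chr19:19668796-24129968 holds 37 ZNF genes, of which 23 were lower and 1 higher from CP to CM. The run at chr19:51571283-53580269 holds 39, of which 17 were lower and 0 higher. By contrast, the last run before the end of the long arm, chr19:57191500-58481230, holds 41, of which 3 were lower and 6 higher. In the run at chr19:43525497-44500524, with 23 genes, 1 was lower and 4 were higher, with ZNF226 counted in both directions through 2 transcripts. The runs at chr19:8509678-9793180 and chr19:36182276-37817300 had 5 and 6 genes lower and 0 higher. These runs were compared with results in view and no test was made of the difference between them.

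**Figure D2:**
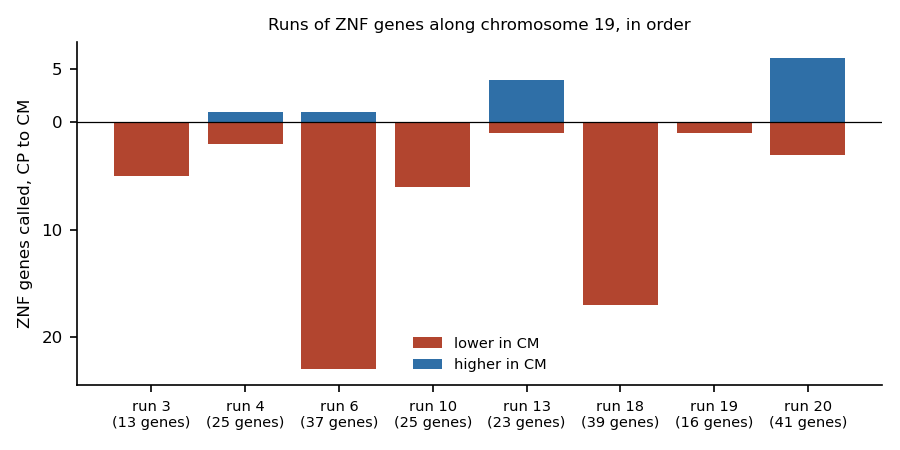
Number of ZNF genes called lower (below 0) and higher (above 0) from CP to CM in each chromosome 19 run of at least 10 annotated ZNF genes, in order along the chromosome. Run 6 had 23 genes lower and 1 higher and run 18 had 17 lower and 0 higher, whereas run 20 had 3 lower and 6 higher.

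Within the run at chr19:19668796-24129968, the 24 called genes had a median log2 change of −1.45. ZNF254 went from 863 to 406, ZNF675 from 535 to 183, ZNF724 from 330 to 51.1 and ZNF730 from 210 to 11.4. ZNF93 went from 563 to 237. The exception was ZNF429, where a transcript with no defined coding sequence went from 13.8 to 93.3 (2.71 ± 0.59). Called genes outside the naming rule were also counted, and these can include ZNF pseudogenes, antisense names and names with a further letter. Of those in this interval, 6 were lower and 0 higher. Those of chr19:51571283-53580269 were 5 lower and 2 higher, those of chr19:57191500-58481230 2 lower and 0 higher, those of chr19:43525497-44500524 0 lower and 4 higher, and those of chr19:36182276-37817300 3 lower and 0 higher.

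In the run at chr19:51571283-53580269 the 17 called genes were all KRAB genes, with a median log2 change of −1.20. ZNF813, ZNF765 and ZNF525 belong to it. So do ZNF649, which went from 688 to 262, and ZNF331, which went from 455 to 24.3 (−4.20 ± 1.41). In the run at chr19:57191500-58481230, ZNF772 went from 251 to 562 (1.16 ± 0.24) and ZNF549 from 65.9 to 149 (1.17 ± 0.32), and all 9 genes called there were KRAB genes.

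Transcript GC content was read beside these counts, since KRAB transcripts are rich in A and T. Among called ZNF transcripts from CP to CM, 83 were lower and 23 higher under 45% GC, 40 and 18 between 45% and 55%, and 6 and 13 over 55%. All other called transcripts ran the other way, with 1383 lower and 1942 higher under 45% GC, and 1527 lower and 1437 higher over 55%. Within the low range, KRAB transcripts were lower in 72 and higher in 15 calls, and transcripts without KRAB lower in 11 and higher in 8. GC content could be read for 183 of the 193 called transcripts.

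**Figure D3:**
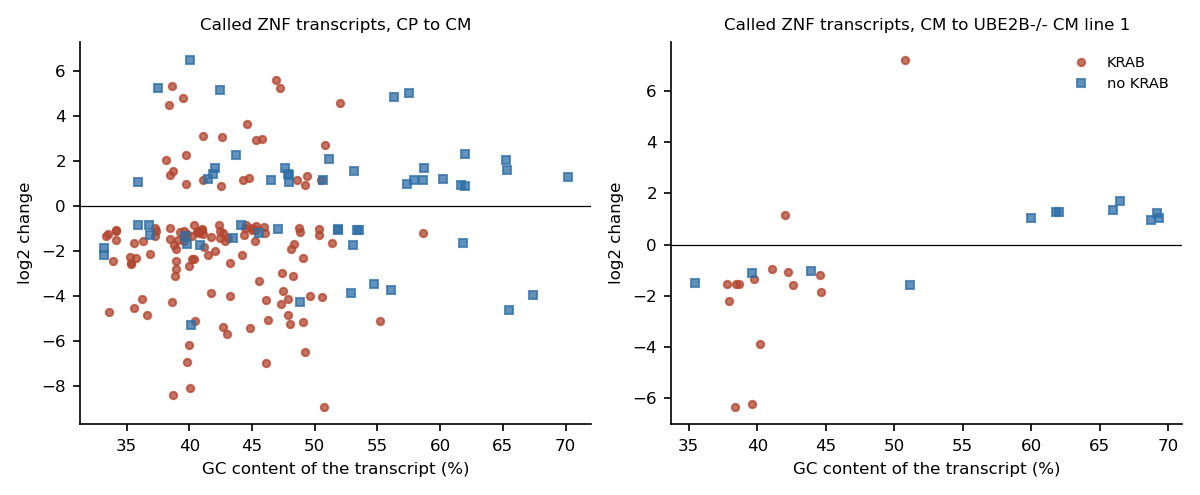
Log2 change of each called ZNF transcript against its GC content in percent, from CP to CM (left) and from CM to UBE2B-/- CM line 1 (right), with circles for KRAB genes and squares for the others; changes of transcripts at 0 counts in 1 group depend on the 0.5 added. From CP to CM both directions occur across the range, and in line 1 the transcripts over 55% GC were 8 higher and 0 lower.

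Among the ZNF genes that rose from CP to CM, ZNF436 came first. This KRAB gene on chromosome 1 (chr1:23359448-23369836, 12 fingers) had a level of 23.6 in M and 117 in CMes, a rise of 2.28 ± 0.48 (q = 6.7e-05). It then went from 108 in CP to 1337 in CM, a rise of 3.63 ± 0.19 (q = 1.5e-79) or 12.4-fold. A second transcript identifier of ZNF436 carried identical values and was counted as listed.

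Regulators without KRAB made up most of the other leading rises. ZNF622, a factor in the maturation of the large ribosomal subunit, went from 720 to 2142 (1.57 ± 0.14, q = 3.9e-29). ZNF827, which binds telomeres and the NuRD complex, went from 824 to 2132 (1.37 ± 0.14, q = 1.3e-21). ZNF503, a corepressor of the NET family, went from 28.4 to 104 between CMes and CP (1.85 ± 0.37) and from 92.0 to 459 between CP and CM (2.31 ± 0.26, q = 4.0e-17). Its relative ZNF703 behaved alike at both steps, from 67.4 to 167 (1.30 ± 0.27) and from 148 to 605 (2.03 ± 0.37). ZNF330, a nucleolar protein, rose by 1.18 ± 0.17.

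Few genes changed at every step. Of the genes called at any transition, 127 were called at 1, 42 at 2, 12 at 3 and 2 at all 4, where adjacent transitions share the libraries of 1 stage. The 2 were ZNF521 and ZNF589. ZNF521, a cofactor with 27 fingers known from blood and neural progenitors, alternated. Its level was 105 in iPSC and 215 in M (1.03 ± 0.33), 230 in M and 645 in CMes (1.49 ± 0.20, q = 8.3e-12), 649 in CMes and 228 in CP (−1.51 ± 0.23, q = 3.2e-09), and 202 in CP and 445 in CM (1.14 ± 0.27). ZNF423, its paralogue and a partner of BMP-activated SMAD proteins, went from 997 to 306 between CMes and CP (−1.70 ± 0.32), so both paralogues were lower at that step.

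ZNF589, a KRAB gene with 4 fingers, fell at 3 steps in a row through 1 transcript. It went from 2835 to 1004 from M to CMes (−1.5 ± 0.15, q = 3.2e-21), from 1011 to 403 from CMes to CP (−1.33 ± 0.15, q = 9.3e-16) and from 356 to 176 from CP to CM (−1.02 ± 0.37, q = 0.039). Before that, from iPSC to M, another transcript of the gene, annotated for nonsense-mediated decay, rose by 0.90 ± 0.21 from 375 to 701.

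The 12 genes called at 3 steps included KRAB genes that moved both ways and KRAB genes called lower only. ZNF577 went from 70.6 to 157 from iPSC to M (1.15 ± 0.33) and from 168 to 65.8 from M to CMes (−1.35 ± 0.37). ZNF695 was lower at the last 3 steps, and its main transcript went from 187 to 95.7 from CMes to CP (−0.96 ± 0.25) and from 84.8 to 9.41 from CP to CM (−3.11 ± 0.71). ZNF738 was lower at 3 steps through 3 different transcripts, and the one called from CP to CM went from 299.9 to 75.3 (−1.99 ± 0.31). ZNF664, without KRAB, was higher at each step where it was called.

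**Figure D4:**
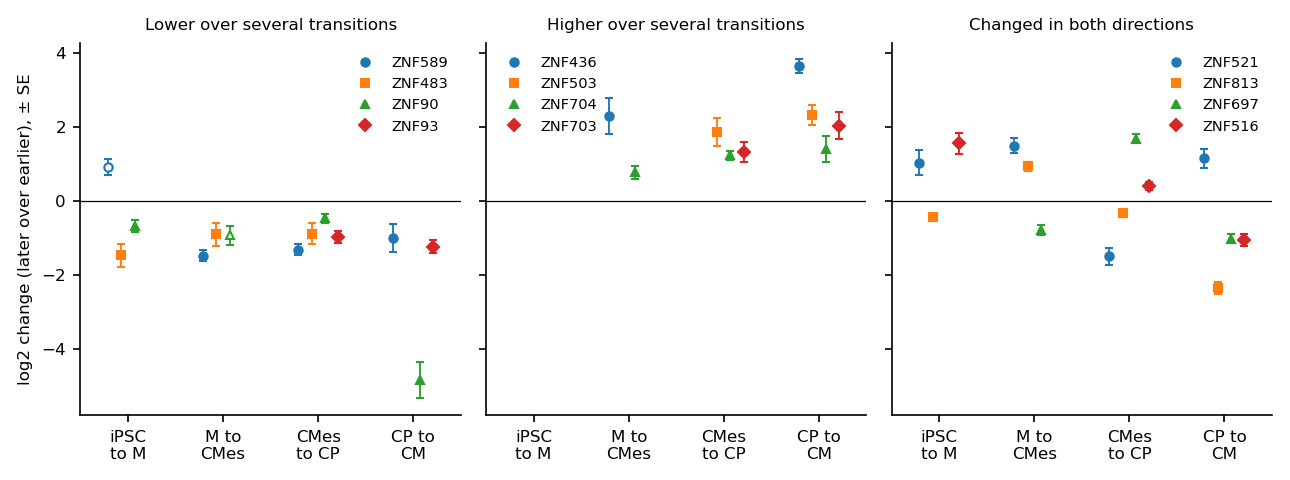
Log2 change with SE at each wild-type stage transition for 12 ZNF genes, each shown by its listed transcript with the highest mean and only where it was listed; open markers are another transcript than the one shown at the last step. ZNF436, ZNF503, ZNF704 and ZNF703 have positive values only, and ZNF521 changed direction between transitions.

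At the first step, from iPSC to M, few ZNF genes were called. ZNF516, an activator of brown fat genes, went from 435 to 1277 (1.55 ± 0.28, q = 4.1e-06), ZNF664 from 685 to 1636 (1.26 ± 0.29) and a transcript of ZNF106, an RNA-binding protein of muscle, from 244 to 504 (1.04 ± 0.27). ZNF398 and ZNF483, both KRAB genes linked to pluripotency, were lower. ZNF398 went from 2621 to 1092 (−1.26 ± 0.24, q = 7.3e-06). ZNF483 went from 1051 to 375 (−1.48 ± 0.31) and was lower again at the next steps (−0.92 ± 0.30 and −0.90 ± 0.28). A transcript of ZNF283 had a level of 56.4 in iPSC and lay under 3 in M. The opposite held for a transcript of ZNF195, under 3 in iPSC and at 74.6 in M, and for one of ZNF655, under 3 and at 23.8.

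From M to CMes, ZNF395 went from 647 to 1503 (1.22 ± 0.15, q = 1.3e-14) and ZNF629 from 770 to 1593 (1.05 ± 0.14, q = 3.2e-11). ZNF608 went from 619 to 2341 (1.92 ± 0.27, q = 5.1e-11). Lower were ZNF296, known from pluripotent cells, from 308 to 47.2 (−2.69 ± 0.45), ZNF860 from 98.9 to 18.8 (−2.36 ± 0.43) and ZNF157 from 99.0 to 18.7 (−2.37 ± 0.44). ZNF296 had risen by 1.27 ± 0.34 from iPSC to M, and in CM its level lay under 3, against 49.0 in CP.

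From CMes to CP, the leading gene was ZNF697, from 730 to 2328 (1.67 ± 0.12, q = 1.1e-39). It fell again from 2062 to 1013 from CP to CM (−1.03 ± 0.13, q = 7.6e-13). ZNF704 went from 449 to 1050 (1.23 ± 0.12, q = 4.4e-21) and on from 930 to 2462 (1.40 ± 0.35). ZNF641 went from 206 to 617 (1.58 ± 0.19) and a transcript of ZNF124 from 126 to 365 (1.53 ± 0.18), which then went from 324 to 71.2 (−2.18 ± 0.26). Lower were ZNF649, from 1558 to 777 (−1.0 ± 0.14), and ZNF93, from 1252 to 635 (−0.98 ± 0.16).

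In 3 genes, transcripts of the same gene moved in opposite directions from CP to CM, namely ZNF3, ZNF226 and ZNF608. For ZNF608, 1 protein-coding transcript went from 657 to 324 (−1.02 ± 0.22) and another from 118 to 263 (1.15 ± 0.29). For ZNF3 the changes were −0.98 ± 0.18 at a level of 1109 in CP and 1.35 ± 0.39 at a level of 64.3. The call is therefore per transcript, and a gene may count in both directions.

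Changes were also read over 5 lists of ZNF genes by role. Over all 252 genes, 40.5% were lower and 17.5% higher from CP to CM. Of 13 KRAB genes known to bind retroelements, satellites or imprinted regions, 6 were lower from CP to CM and 0 higher, namely ZNF91, ZNF93, ZNF649, ZNF765, ZNF141 and ZNF808, with a median of −1.32. Of the 13, 10 were among the 252 listed genes, and over all 165 listed KRAB genes 79 were lower (47.9%) and 21 higher (12.7%). Nothing particular to the list is read from its count. ZNF93, which silences L1 elements, went from 563 to 237 (−1.24 ± 0.18, q = 1.3e-10), and ZNF141 from 697 to 254 (−1.45 ± 0.21). ZNF91, which silences SVA elements, was called through a retained-intron transcript that went from 141 to 59.1 (−1.24 ± 0.34), while its main transcript was listed below the fold limit at −0.81 ± 0.15. ZNF445, which guards imprinted regions, had risen from 238 to 476 from CMes to CP (1.0 ± 0.18). Of ZNF91, the same retained-intron transcript had risen from 79.3 to 159 between CMes and CP (1.0 ± 0.24). Of ZNF765, a second protein-coding transcript went from 170 to 419 at that step (1.30 ± 0.22) and from 371 to 46.0 at the next (−3.0 ± 0.43).

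Over all 252 listed genes, 8 were lower and 10 higher at the first step, 21 and 28 at the second, and 26 and 20 at the third. Of 9 genes linked to pluripotency, 7 of them among the 252 listed, 2 were lower and 1 higher at each of the first 2 steps. At the third step 3 were lower and 0 higher, and at the last 4 were lower and 1 higher, the latter being ZNF322 through a transcript under 3 in CP and at 44.7 in CM. ZNF281, a partner of NANOG, went from 883 to 387 at the last step (−1.19 ± 0.18, q = 2.2e-09), and ZNF217, which binds the corepressor CtBP, from 2336 to 878 (−1.41 ± 0.33). ZNF207, a spindle protein that is also spliced in a stem-cell form, was lower at the last 2 steps through 2 different transcripts, with −0.90 ± 0.16 and −0.85 ± 0.17.

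Over the 87 listed genes without KRAB, 26.4% were lower and 26.4% higher from CP to CM. Over all 252 listed genes, with and without KRAB, those shares were 40.5% and 17.5%. Of 13 lineage and signalling cofactors, 10 of them listed, 6 were higher and 2 lower at this step, with a median of 1.67. The 6 were ZNF219, ZNF436 (a KRAB gene), ZNF503, ZNF521, ZNF536 and ZNF703. Of 17 general promoter and chromatin factors, 12 of them listed, 5 were higher and 1 lower. ZNF644, a partner of the histone methyltransferases G9a and GLP, went from 792 to 1643 (1.05 ± 0.22), a transcript of ZNF148 from 142 to 675 (2.25 ± 0.47), and ZNF76 from 117 to 377 (1.68 ± 0.59). The lower one was a transcript of ZNF532 at a level of 9.20 in CP and under 3 in CM. Of 12 genes of RNA, ribosome and spindle proteins, 10 of them listed, 3 were higher and 2 lower. Of these, ZNF638 (higher) and ZNF598 (lower) rested on transcripts with 1 group under 3 estimated counts. The counts of these lists were not tested.

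The corepressors that KRAB proteins use are not ZNF genes and were read from a list of 18. From M to CMes, 6 were higher and 1 lower. At the next step 3 were lower and 0 higher, and at the last 5 were lower and 2 higher. Of all transcripts tested, the called shares at these steps were 3.81%, 3.8% and 8.25% higher and 2.65%, 2.63% and 6.99% lower. Those shares count transcripts and the list counts genes, so nothing is read from the list counts. UHRF1, which keeps DNA methylation through replication, rose by 1.36 ± 0.20, then fell by 1.10 ± 0.20 and by 1.91 ± 0.45 on the log2 scale over these 3 steps. TRIM28 itself was listed below the fold limit, at −0.60 ± 0.14 from CP to CM. In the same comparison, from CP to CM, all 6 cardiomyocyte markers rose and 5 of 6 pluripotent markers fell. Of 6 cardiac progenitor markers, 4 rose (GATA4, HAND2, NKX2-5 and TBX5) and 1 fell (PDGFRA). Of 10 markers of mesenchymal, endothelial and endoderm cells, 5 fell and 1 rose. Their part in the ZNF counts was not tested.

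In UBE2B-/- CMs, most called KRAB genes were lower and most called ZNF genes without KRAB were higher. The targeted gene was read first. A UBE2B transcript was lower in line 1 (−1.91 ± 0.53, q = 0.0113), and no UBE2B transcript was listed for line 2. In line 1, 18 ZNF transcripts were lower and 10 higher, where 1.72% and 2.18% of all 65457 transcripts tested were called. In line 2, 15 were lower and 9 higher (1.53% and 2.46%). Lower ones made up 64.3% and 62.5% of the ZNF calls, against 44.1% and 38.4% of all calls.

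By kind of protein, 14 KRAB transcripts were lower and 2 higher in line 1, and 4 without KRAB were lower and 8 higher. In line 2 those counts were 13 and 2 with KRAB, and 2 and 7 without. Lower in each of the lines were 7 transcripts of 6 genes, and higher in each were 7 transcripts of 7 genes (0.909% and 1.52% of all tested). Since the lines share their wild-type libraries, the overlap is a count and no independent repeat.

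The higher genes came mostly without KRAB. ZNF579, with 8 fingers (chr19:55576774-55580848), had a level of 346 in wild-type CM, 874 in line 1 and 929 in line 2. Its log2 change was 1.33 ± 0.21 in line 1 (q = 2.9e-07) and 1.42 ± 0.21 in line 2 (q = 2.5e-08). ZNF467, a cofactor in the choice between bone and fat, stood at 104, 338 and 374, with changes of 1.70 ± 0.36 and 1.84 ± 0.36. The neighbours ZNF580 and ZNF581 on chromosome 19 stood at 253, 603 and 653 and at 209, 503 and 568, and in both the lines lay above wild type by more than 2 times the SE.

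ZNF503 stood at 529, 1266 and 1353 (1.26 ± 0.37 and 1.35 ± 0.37) and ZNF775 at 120, 247 and 285 (1.04 ± 0.30 and 1.24 ± 0.30). The one KRAB gene among the higher was ZNF875. Its transcript lay under 3 in wild-type CM and stood at 73.1 in line 1 and 73.9 in line 2. From CP to CM the same transcript went from 244 to under 3, at least 81.4-fold lower. A second ZNF875 transcript, with a retained intron, was called lower in line 2 (q = 0.031, mean level 8.37), so this gene counts in both directions there. The run at chr19:55476617-56671783, which holds ZNF579, ZNF580 and ZNF581, had 4 ZNF genes higher and 0 lower in each line. Other called transcripts of chromosome 19 leaned the same way, with 186 higher and 15 lower in line 1 and 197 higher and 11 lower in line 2.

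The lower genes were KRAB genes apart from ZNF639. ZNF736, on chromosome 7, stood at 135 in wild-type CM, 8.81 in line 1 and 7.74 in line 2, with changes of −3.87 ± 0.84 (q = 0.0005) and −4.04 ± 0.84 (q = 0.00021). ZNF460 stood at 292, 79.8 and 116 (−1.87 ± 0.40 and −1.33 ± 0.40), and ZNF441 at 179, 61.8 and 40.2 (−1.53 ± 0.46 and −2.14 ± 0.46). ZNF302 was lower through 2 transcripts, the first at 508, 176 and 162. ZNF181, its neighbour on chromosome 19, stood at 320, 110 and 121, and ZNF639 at 321, 112 and 123.

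**Figure D5:**
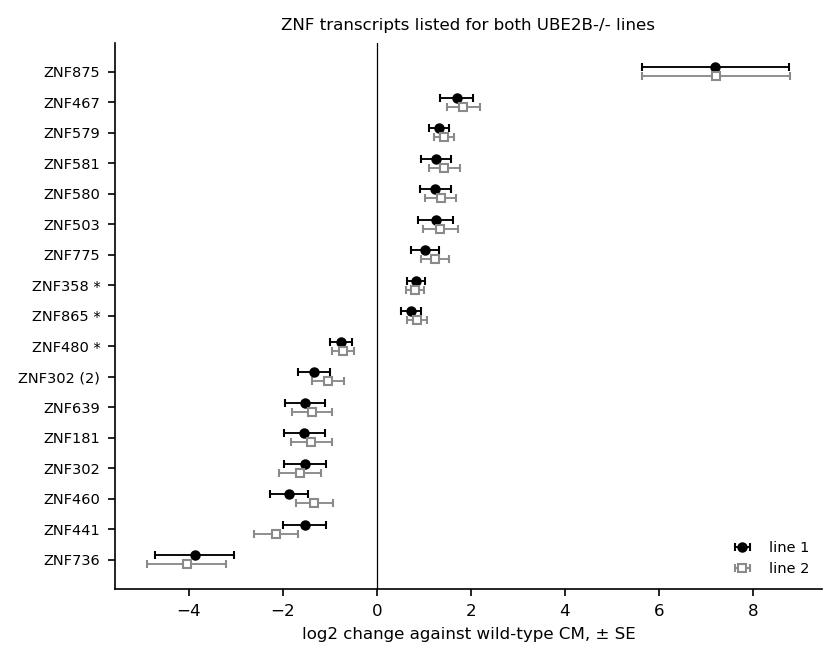
Log2 change against wild-type CM with SE for the 17 ZNF transcripts listed for both UBE2B-/- lines (filled circles, line 1; open squares, line 2); an asterisk marks 3 below the fold limit in at least 1 line, "(2)" a second transcript of ZNF302, and the value of ZNF875 depends on the 0.5 added to counts. Values run from ZNF736, at −3.87 and −4.04, to ZNF875, and both lines were set against the same wild-type libraries.

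Line 1 and line 2 were compared with each other, a difference from which wild type drops out. Of 17 ZNF transcripts listed for both, 0 differed between the lines at a q-value under 0.05 over the 1992 transcripts listed for both, and 0 at an unadjusted p under 0.05, by the Wald test. The largest difference was 0.61 on the log2 scale, for ZNF441, where the SE was 0.46. A difference of that size could therefore not be resolved, and the lines are not shown to be alike. The 17 were also taken because both lines listed them. That favours like changes and leaves out transcripts listed for 1 line alone.

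Some called transcripts were listed for 1 line alone, 14 for line 1 and 9 for line 2. ZNF865 was listed for both and called in line 2 only, with 0.73 ± 0.21 in line 1 and 0.86 ± 0.21 in line 2. ZNF91 was lower in line 1 (−2.21 ± 0.46, q = 0.0002), through another transcript than the one called from CP to CM. ZNF106 and ZNF638, both RNA-binding proteins, had mean levels of 3313 and 2572 over all 9 libraries of the fit and changes of −1.02 ± 0.24 and −1.13 ± 0.27 there, and ZNF436 had −1.18 ± 0.35. For a transcript called in 1 line the other line's change can be solved from the variance columns as 1 of 2 values. For ZNF91 these were −1.14 and −1.07, and for ZNF436 −0.98 and −0.21. In line 2, ZNF664 was lower (−1.32 ± 0.35), with −1.0 or −0.32 in line 1.

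From CP to CM, 143 of all 252 listed genes were called, so no link is read from an overlap. Of the 13 genes called in both lines, 6 were also called from CP to CM, namely ZNF181, ZNF302, ZNF503, ZNF581, ZNF736 and ZNF875. Their values are set side by side, since both fits use the wild-type CM libraries. ZNF302 rose from CP to CM, from 1072 to 2239 through its main transcript (1.06 ± 0.24), and 1 of the 2 transcripts listed for both lines went from 148 to 440. ZNF181 went from 107 to 278 (1.37 ± 0.34). ZNF503 was higher in both, ZNF736 lower in both (−1.36 ± 0.30 from CP to CM), and ZNF581 was lower from CP to CM, from 567 to 181 (−1.65 ± 0.38), and higher in the lines. ZNF436, called in line 1 alone, was the leading rise of CP to CM.

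GC content moved with direction in the lines, for ZNF transcripts and for all others. The lower ZNF transcripts of both lines had a median of 38.7% GC and none over 44.6%, while the higher ones had a median of 66.0% and none under 50.8%. Over all transcripts called in both lines the medians were 43.1% and 59.2%. Other transcripts of line 1 under 45% GC were 650 lower and 88 higher, and those over 55% were 95 lower and 933 higher. Its part in the ZNF calls was not tested, and KRAB and GC content cannot be told apart in so few transcripts.

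Cell type markers moved as well. Of 6 cardiomyocyte markers, 4 were lower in line 1 and 5 in line 2, with TNNT2 at −1.48 ± 0.42 and −1.77 ± 0.42. Of 6 cardiac progenitor markers, 2 were higher in line 1 (GATA4 and PDGFRA) and 1 in line 2 (GATA4), and 0 were lower. Of 10 markers of mesenchymal, endothelial and endoderm cells, 2 were higher in line 1 and 5 in line 2, with COL3A1 at 3.51 ± 0.79 and 4.81 ± 0.79, and 0 pluripotent markers were called. Of the 18 KRAB corepressors, 3 were higher and 2 lower in line 1, and 2 higher and 1 lower in line 2. Of all transcripts tested, 2.18% were called higher and 1.72% lower in line 1, and 2.46% and 1.53% in line 2. TRIM28 was higher in both lines, by 1.21 ± 0.22 and 1.33 ± 0.22, as was CHD3, while PPHLN1 was lower in both. The part of the cell mixture in the ZNF values was not tested.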

How the data were processed

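Reads of 15 wild-type and 6 UBE2B-/- libraries were trimmed with the FASTX-Toolkit, assigned to hg38 transcripts with Kallisto and compared by the Wald test in Sleuth. The authors deposited 6 tables, limited to q-values of at most 0.05, with p-values and q-values, effects b, standard errors and mean levels of estimated counts plus 0.5 on the natural log scale, and variance scores. They hold 0 columns of values per sample, so depth is unknown and precision is the standard error.

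From the deposited columns, log2 changes, group levels, the number tested and the mean of both lines (SE 0.866 times that of 1 line) were computed in Python 3.11.15 with pandas 2.3.3 and SciPy 1.17.1, checked on simulated data. Coordinates, transcript GC content and proteins came from GENCODE 44. KRAB means at least 13 residues identical to a 41-residue A-box consensus, and a finger 2 cysteines and 2 histidines at C2H2 spacing. Proteins were translated from the annotation in place of the planned protein table. Motifs were searched on both strands of RefSeq promoter windows.

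The members and lists were chosen with earlier results of these data known. Named genes, each given by its listed transcript with the highest mean, were the 4 with the largest ratio of effect to SE per direction and transition, the 5 per direction in both lines, those called at 3 transitions or more, up to 5 called in both lines and from CP to CM, and called members of the 5 role lists. Genes cited for position, for opposite transcripts or for 1 line alone were chosen after their values were seen. Alternatives are listed in the closing section.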

Additional observations from a re-analysis of the deposited data

How the results depend on the processing

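The 133 changes of named genes kept direction and call with the transcript of smallest p-value in place of that of highest mean. Counts of ZNF transcripts moved by over 1.5 times as follows. Under a t distribution, 0 remained in either direction for iPSC to M, M to CMes, CMes to CP, line 1, line 2 and both lines, and from CP to CM 1 lower and 3 higher, of which 1 and 2 were KRAB transcripts. The heavier tails of that distribution set this. With no fold limit, 20 were lower and 23 higher from iPSC to M, 44 and 53 from M to CMes, and 65 and 44 from CMes to CP. With q-values of at most 0.01, 5 and 6 remained from iPSC to M, 8 and 5 in line 1, 6 lower in line 2, 1 lower in both lines, and 18 higher KRAB transcripts from CP to CM. With technical variance limited to under 50% of the total, 6 were higher from iPSC to M and 13 lower from M to CMes. The other counts stayed within 1.5 times, including all those with identical transcripts counted once, with a mean of at least 10 estimated counts and, chosen after seeing the data, with protein-coding transcripts only or with no group mean under 3 estimated counts. The last was run for the 10 counts at the stage transitions and not for the lines.

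No paired analysis was possible because the tables hold no values per sample. For the same reason leaving out each replicate was not run, and whether 1 library decides a value is unknown. Median technical variance was 12% to 25.4% of the variance used for ZNF transcripts, against 14.2% to 25.0% for all. How reads shared by near-identical ZNF paralogues and isoforms were assigned could move single transcripts, which was not tested.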

Other observations

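Genes lower from CP to CM were compared with those higher at the promoter. The ETS letters CCGGAAG stood in a window of 45 of 66 KRAB genes that were lower (68.2%) and 10 of 19 that were higher (52.6%), and in 3 of 19 lower (15.8%) and 5 of 16 higher (31.3%) genes without KRAB. The CCAAT letters stood in 68.2% of the lower and 57.9% of the higher KRAB genes, and the other way in genes without KRAB, in 31.6% and 50%. These shares are descriptions of letters, on genes chosen by their change, and were not tested.

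Between comparisons that share no library, ZNF genes lower from M to CMes and from CP to CM had 9 in common, 42.9% of the 21 of the first and 8.82% of the 102 of the second, among them ZNF195, ZNF296 and ZNF695. Over all 252 listed genes 40.5% were lower from CP to CM. Of the 252, 180 were listed at that step itself, so this share is raised by how the genes entered. It is no independent base, and nothing is read from these overlaps. Genes higher from M to CMes and lower from CP to CM numbered 11, among them ZNF813, ZNF765, ZNF395 and ZNF217. They were 39.3% of the 28 of the first and 10.8% of the second. Genes higher in both numbered 7, 25.0% of the first (17.5% over all listed genes) and 15.9% of the 44 of the second, among them ZNF436 and ZNF521.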
